A study of Mus musculus with 90 samples.

Results

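De novo lipogenesis turns surplus carbohydrate into fatty acids in the liver, and 10 genes that encode its regulators and enzymes were followed here across diet, genotype, time of day and corticosterone. The 10 genes were chosen by name as the textbook core of the pathway, with earlier results of these data known. They were looked up by symbol among the 27654 gene IDs of the count tables, where each symbol was found. Srebf1 encodes SREBP-1, the transcription factor through which insulin induces the pathway, and Mlxipl encodes ChREBP, its glucose-responsive counterpart. Acly makes cytosolic acetyl-CoA from citrate, and Me1 supplies NADPH. Acaca and Acacb encode the acetyl-CoA carboxylases that make malonyl-CoA, the first for synthesis in the cytosol and the second at the mitochondrial surface, where malonyl-CoA restrains fatty acid oxidation. Fasn builds palmitate from malonyl-CoA, Elovl6 lengthens it, and Scd1 introduces the double bond of oleate. Thrsp encodes Spot 14, a small lipogenic protein known for its response to thyroid hormone and carbohydrate. In liver the pathway is known to be low in fasting and to be induced on refeeding.

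Poly(A) RNA was sequenced from livers of adult male C57BL/6J mice on chow in 3 experiments with 90 libraries in 28 groups. In the diet experiment, WT mice at ZT12 were on caloric restriction (n = 3) or control diet (n = 3), where ZT is zeitgeber time in hours after lights on. These controls carry AL in their titles, while their treatment label is night-restricted feeding. In the corticosterone experiment, WT mice under night-restricted feeding were sampled at ZT12 after corticosterone (n = 3) or vehicle (n = 3), given by daily intraperitoneal injection. The time series covered ZT0, ZT4, ZT8, ZT12, ZT16 and ZT20 on both diets and in both genotypes. Its WT mice carried floxed alleles of the glucocorticoid receptor gene Nr3c1 without Cre (GRfl/fl), and its GRLKO mice carried the same alleles with Alb-Cre (GRfl/fl x Alb-Cre), which deletes in hepatocytes. On caloric restriction each of the 12 groups had 3 mice. On control diet the groups had 4 mice for WT at ZT8, ZT12, ZT16 and ZT20 and for GRLKO at ZT8 and ZT12, and 3 mice in the other 6. By the treatment label, control mice were under night-restricted feeding, and restricted mice received 40% less calories at the end point. Food was given at ZT12, so a ZT12 liver preceded the meal and a ZT16 liver followed it. The labels give no age.

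Libraries held 14.2 to 20.8 M counts in the caloric restriction time series, 10.1 to 17.1 M in the control time series, 36.4 to 39.5 M in the diet experiment and 13.7 to 16.1 M in the corticosterone experiment. All 10 genes passed the filter on low counts in all 23 edgeR comparisons, so none was lost to depth. Levels are given as CPM, which are counts scaled to library size with TMM factors within a table, and CPM of different genes are not compared because transcripts differ in length. Nr3c1 itself followed the genotype labels: group means were 77.6 to 101.9 CPM in WT and 21.8 to 31.2 CPM in GRLKO mice on caloric restriction, and 75.0 to 94.7 against 18.8 to 26.2 CPM on control diet. Every GRLKO library lay below every WT library of the time series. The tissue label was checked on markers. All 7 hepatocyte markers were detected in every group, and Alb held the most counts of any gene in each library. Among 8 adipocyte markers Plin1 was at 0 in every library and Lep in all but 1, and their summed group means stayed between 7.93 and 45.4 CPM. The highest sums were in GRLKO on control diet and came from Cfd, which was called higher in GRLKO there at ZT0, ZT4, ZT8 and ZT12, with 28.2 ± 14.9 CPM in GRLKO against 0.296 ± 0.513 CPM in WT at ZT0 (SD, n = 3), and not at ZT16 or ZT20. Its part in the results was not tested.

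The diet experiment asked how caloric restriction sets the pathway at ZT12, just before food. In WT liver 5 of the 10 genes were higher under restriction (Mlxipl, Acly, Acaca, Acacb and Fasn) and 2 were lower (Srebf1 and Thrsp). These 7 calls by edgeR at an adjusted p under 0.05 stand beside 47.1% of all genes called, so the diets differed across much of the transcriptome. The regulators went opposite ways. Mlxipl stood at 239, 209 and 271 CPM in the control libraries and at 347, 376 and 382 CPM in the restricted ones (log2 fold change 0.62 ± 0.11 SE, adjusted p = 0.00326). Srebf1 stood at 287, 225 and 293 CPM in controls and at 216, 186 and 169 CPM under restriction (log2 fold change -0.50 ± 0.13 SE, adjusted p = 0.0197). For both genes the 3 restricted libraries lay on 1 side of the 3 controls, and the gap was narrow for Srebf1, between its highest restricted and lowest control library. Fewer cells of a type and less RNA per cell cannot be told apart in bulk liver, here and in every comparison that follows.

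The enzymes that make palmitate were higher under restriction. Fasn was at 61.9, 65.8 and 74.6 CPM in controls and at 133, 112 and 105 CPM under restriction (log2 fold change 0.79 ± 0.11 SE, adjusted p = 0.00169). Acaca was at 90.3, 103 and 111 CPM in controls and at 152, 160.4 and 156 CPM under restriction (log2 fold change 0.62 ± 0.088 SE, adjusted p = 0.00159). Both genes were higher in 3 of 3 restricted libraries, with no overlap. Its mitochondrial counterpart Acacb was at 82.8, 139 and 164 CPM in controls and at 228, 207 and 205 CPM under restriction (log2 fold change 0.73 ± 0.23 SE, adjusted p = 0.0326). Acly, which feeds the carboxylases with acetyl-CoA, was at 124, 144 and 175 CPM against 224, 179 and 199 CPM (log2 fold change 0.44 ± 0.14 SE, adjusted p = 0.036). These groups also did not overlap, although the highest Acly control lay just under the lowest restricted library. Thrsp fell most, from 376, 544 and 555 CPM in controls to 328, 134 and 111 CPM (log2 fold change -1.36 ± 0.40 SE, adjusted p = 0.0279), and restricted replicate 1 was the highest of its group. Me1, Scd1 and Elovl6 overlapped between the diets, with log2 fold changes of 0.077 (adjusted p = 0.729), 0.28 (adjusted p = 0.345) and 0.056 (adjusted p = 0.85). Scd1 ranged from 13850 to 26200 CPM under restriction and from 14750 to 19270 CPM in controls.

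Mlxipl, Acaca and Fasn kept their calls without each of the 6 libraries in turn, and the other 4 calls each depended on several libraries. Srebf1 was no longer called without control replicate 1 or 3 or restricted replicate 2 or 3 (adjusted p up to 0.0696), and Acly without control replicate 1 or 2 or restricted replicate 1 or 3 (up to 0.105). Acacb was no longer called without control replicate 2 or any restricted replicate (up to 0.0731), and Thrsp without control replicate 2 or 3 or restricted replicate 2 or 3 (up to 0.0907). The count of called genes was 4 without control replicate 2, 4 without restricted replicate 2 and 3 without restricted replicate 3. Scd1 was called as higher without restricted replicate 1, where the count was 6. Of the hepatocyte markers 4 of 7 were called higher under restriction and none lower, beside the 47.1% of all genes. Their summed level was 161400 ± 3949 CPM against 86660 ± 3147 CPM (SD, n = 3), most of it Alb at 131500 ± 3070 against 66370 ± 2489 CPM, so the sums of this list mainly follow 1 gene. Their part in the result was not tested.

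The time series holds a second diet contrast in WT mice at ZT12, in which diet coincides with the series of library identifiers, so diet and library series cannot be told apart there. In that contrast Srebf1 was lower under restriction, with a log2 fold change of -2.50 (adjusted p = 0.00114), and so was Thrsp, at -1.47 (adjusted p = 0.0014), as in the diet experiment. Fasn, Acly and Elovl6 were lower there too: Fasn was at -2.07 (adjusted p = 0.0025), Acly at -0.72 (adjusted p = 0.0149) and Elovl6 at -0.80 (adjusted p = 0.0494). Mlxipl was at -0.33, Acaca at -0.38, Me1 at -0.65, Scd1 at -0.52 and Acacb at 0.61, none called. The sign of the diet estimate thus differed between the experiments for 7 of 10 genes, all but Srebf1, Acacb and Thrsp, and 3 of the 7 (Mlxipl, Acaca and Fasn) had the lowest adjusted p of the diet experiment. In libraries, Fasn at ZT12 under restriction was at 59.2, 40.6 and 72.8 CPM in the time series and at 133, 112 and 105 CPM in the diet experiment. Its controls were at 269, 350.4, 136 and 205 CPM in the time series and at 61.9, 65.8 and 74.6 CPM in the diet experiment. The time-series controls were thus above their restricted libraries in all 4 mice, and the diet-experiment controls below theirs in all 3.

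The lists of genes around the pathway are set beside the 47.1% of all genes called in the diet experiment. Of 24 further lipogenic enzymes 3 rose and 6 fell, 37.5% of the list and below that share, with a median log2 fold change of -0.093 beside 0 over all genes tested and 0.36 over the 10 genes. Acsl3, an acyl-CoA synthetase, rose by 1.60 (adjusted p = 0.000192), while Aacs, which activates acetoacetate for lipid synthesis, was at -1.91 (adjusted p = 0.000764). The pyruvate kinase Pklr was at -0.70 and the desaturase Fads2 at -0.62, both called as lower. Of 22 regulators around SREBP-1 and ChREBP 10 rose and 4 fell, with a median of 0.041. The insulin receptor substrates were the most raised of the list, Irs2 by 2.46 (adjusted p = 0.0019) and Irs1 by 1.98 (adjusted p = 0.000255). Insig1, which holds the SREBP complex in the endoplasmic reticulum, rose by 1.34, and Tsc22d1 was lower at -1.61. Of 17 SREBP-1 or ChREBP targets outside the pathway 15 could be tested, 8 rose and 1 fell, with a median of 0.48. Txnip rose by 2.13, Lpin1 by 1.81 and Arrdc4 by 1.36.

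The corticosterone experiment asked whether the hormone alone, in mice on control feeding, moves the pathway at ZT12. edgeR called 0 of the 10 genes, beside 8.11% of all genes, with 2 at an unadjusted p under 0.05, beside 26% of all genes, and 2 called by DESeq2, beside 10.9%. Of the 10 estimates 9 were below 0. Mlxipl was at 563, 456 and 521 CPM with vehicle and at 392, 377 and 420.2 CPM with corticosterone (log2 fold change -0.37 ± 0.11 SE, adjusted p = 0.08). Acly was at 436, 452 and 516 CPM with vehicle and at 230.2, 272 and 393 CPM with the hormone (log2 fold change -0.65 ± 0.20 SE, adjusted p = 0.0897). For these 2 genes each of the 3 treated libraries lay below all 3 vehicle libraries. Fasn had the largest estimate, at 559, 494 and 298 CPM with vehicle against 228, 72.8 and 342 CPM (log2 fold change -1.07 ± 0.51 SE, adjusted p = 0.236), but treated replicate 3 overlapped the lowest vehicle library. Corticosterone replicate 2 was the lowest of its group for Srebf1, Fasn, Scd1 and Elovl6, with Scd1 at 1585 CPM beside 8510 and 8268 CPM. Without corticosterone replicate 3 the count of called genes was 1. Me1 was the exception in sign, at 0.54 (adjusted p = 0.375). The remaining estimates were -0.56 (adjusted p = 0.468) for Srebf1, -0.13 (adjusted p = 0.85) for Acaca, -0.16 (adjusted p = 0.825) for Acacb, -0.39 (adjusted p = 0.717) for Scd1, -0.11 (adjusted p = 0.933) for Elovl6 and -0.17 (adjusted p = 0.862) for Thrsp. In each of these 6 genes the groups overlapped.

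Some genes around the pathway were called with corticosterone, beside 8.11% of all genes. Of the 24 further enzymes 2 fell, Elovl1 by 0.83 and Acsl3 by 0.62 on the log2 scale, and none rose (median -0.028 beside -0.007 over all genes). Of the 22 regulators 4 rose and 2 fell, and the 2 that fell were Insig1, at -1.28 (adjusted p = 0.0047), and Irs1, at -0.88 (adjusted p = 0.0176). Of 13 tested targets outside the pathway Lpin1 rose by 4.51 and Rgs16 by 6.58, whereas Angptl8, a secreted protein induced by feeding, was at -3.13. The medians were 0.11 for the regulators, 0.17 for the targets and -0.27 for the 10 genes.

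**Figure D1:**
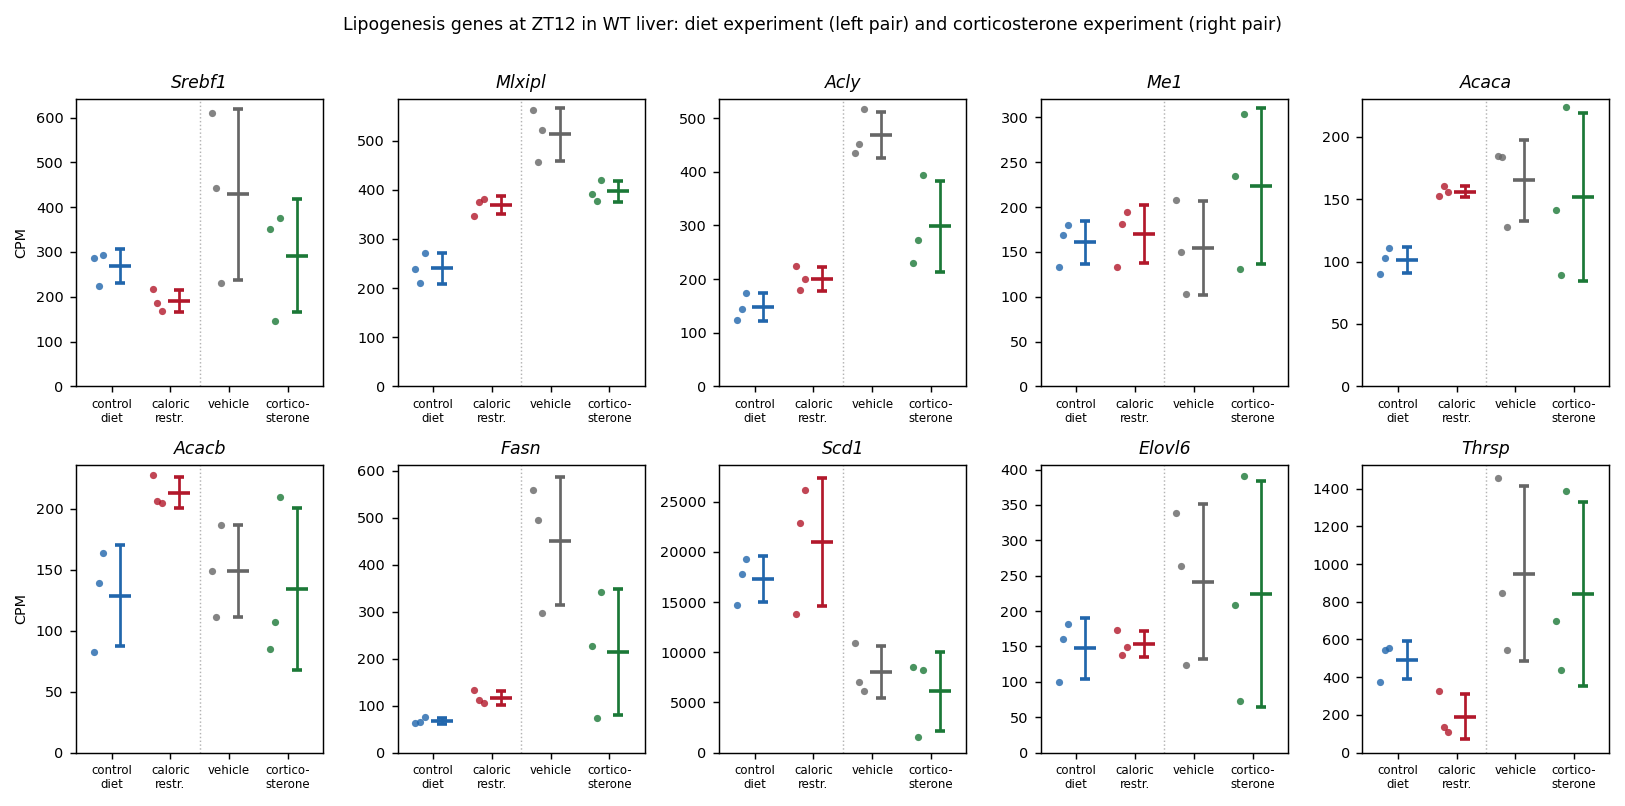
CPM of the 10 lipogenesis genes in WT liver at ZT12, each point 1 library and each bar the group mean with its SD (n = 3), for the diet experiment on the left of the dotted line and the corticosterone experiment on the right. Mlxipl, Acaca and Fasn were higher in every restricted library than in every control, and Thrsp was lower. With corticosterone Mlxipl and Acly lay below every vehicle library, without a call by edgeR.

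Over the day, most of the genes in WT mice on caloric restriction had their lowest mean before the meal and their highest after it. The lowest of the 6 group means was at ZT12 for 8 of the 10 genes, and at ZT0 for Elovl6 and Thrsp. The maximum fell at ZT16 for Srebf1, Acaca, Fasn, Elovl6 and Thrsp, at ZT20 for Mlxipl, Acly and Acacb, and at ZT4 for Me1 and Scd1. Fasn had the widest range, from 57.5 ± 16.2 CPM at ZT12 to 676 ± 191 CPM at ZT16 (SD, n = 3), a ratio of 11.8. Srebf1 ranged from 76.8 ± 28.3 CPM at ZT12 to 422 ± 71.6 CPM at ZT16, Elovl6 from 90.2 ± 19.2 CPM at ZT0 to 515 ± 175 CPM at ZT16, and Thrsp from 88.2 ± 9.18 CPM at ZT0 to 496 ± 159.9 CPM at ZT16. These 4 genes had the steepest profiles, with ratios of 5.49 to 11.8 between the highest and lowest mean. Acly ranged from 189 ± 16.7 CPM at ZT12 to 788 ± 83.5 CPM at ZT20, Scd1 from 4328 ± 1434 CPM at ZT12 to 10860 ± 1382 CPM at ZT4, Me1 from 99.8 ± 11.2 CPM at ZT12 to 248 ± 28.1 CPM at ZT4, Acacb from 79.7 ± 22.3 CPM at ZT12 to 191 ± 17.2 CPM at ZT20, Acaca from 119 ± 14.1 CPM at ZT12 to 279.8 ± 20.6 CPM at ZT16 and Mlxipl from 296 ± 37.6 CPM at ZT12 to 559.8 ± 15.8 CPM at ZT20. Acaca and Fasn also had increasing means from ZT0 to ZT8, with Fasn means of 122 ± 29.9, 213 ± 31.4 and 288 ± 76.5 CPM at ZT0, ZT4 and ZT8, before the low value at ZT12. These steps were not tested as pairs.

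GRLKO mice on caloric restriction had higher ZT12 means than WT in several genes. Srebf1 ranged from 206 ± 23.6 CPM at ZT0 to 432 ± 86.7 CPM at ZT8, and its ZT12 mean was 233 ± 22.5 CPM. Fasn ranged from 106 ± 17.9 CPM at ZT12 to 275 ± 64.9 CPM at ZT16, a ratio of 2.6, and Elovl6 from 107 ± 26.6 CPM at ZT0 to 400.1 ± 132 CPM at ZT16. Acacb and Thrsp had larger ratios in GRLKO than in WT. Acacb ranged from 37.6 ± 6.01 CPM at ZT12 to 149.9 ± 40.7 CPM at ZT20, a ratio of 3.98 beside 2.39 in WT, and Thrsp had a ratio of 6.77 beside 5.62. Tests of the step from ZT12 to ZT16 follow.

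In WT mice on control diet the ratio of highest to lowest mean was smaller than in WT on caloric restriction, except for Acacb, Scd1 and Thrsp. Fasn ranged from 228 ± 132 CPM at ZT8 to 560.3 ± 133 CPM at ZT16 (SD, n = 4), Srebf1 from 349 ± 53.4 CPM at ZT4 to 641 ± 148 CPM at ZT16 and Elovl6 from 128 ± 19.7 CPM at ZT20 to 331 ± 67.5 CPM at ZT16. Thrsp ranged from 212 ± 74.0 CPM at ZT4 to 1333 ± 315 CPM at ZT16, a ratio of 6.28, and Acacb from 51.9 ± 22.9 CPM at ZT12 to 219.6 ± 38.1 CPM at ZT20, a ratio of 4.23. Spot 14 RNA thus already stood at 1347, 1117, 721 and 1080 CPM in the ZT12 WT libraries, before the meal, beside 179, 346, 195 and 418 CPM at ZT8. The other ratios in WT were 2.56 for Scd1, 2.19 for Acly, 1.99 for Me1, 1.5 for Mlxipl and 1.33 for Acaca. In GRLKO mice on control diet the ratios ran from 1.24 for Acaca to 4.82 for Thrsp, and Fasn ranged from 249.3 ± 115 CPM at ZT8 to 693 ± 217 CPM at ZT16. Levels on the 2 diets are not compared by time point here, because diet and library series cannot be told apart.

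**Figure D2:**
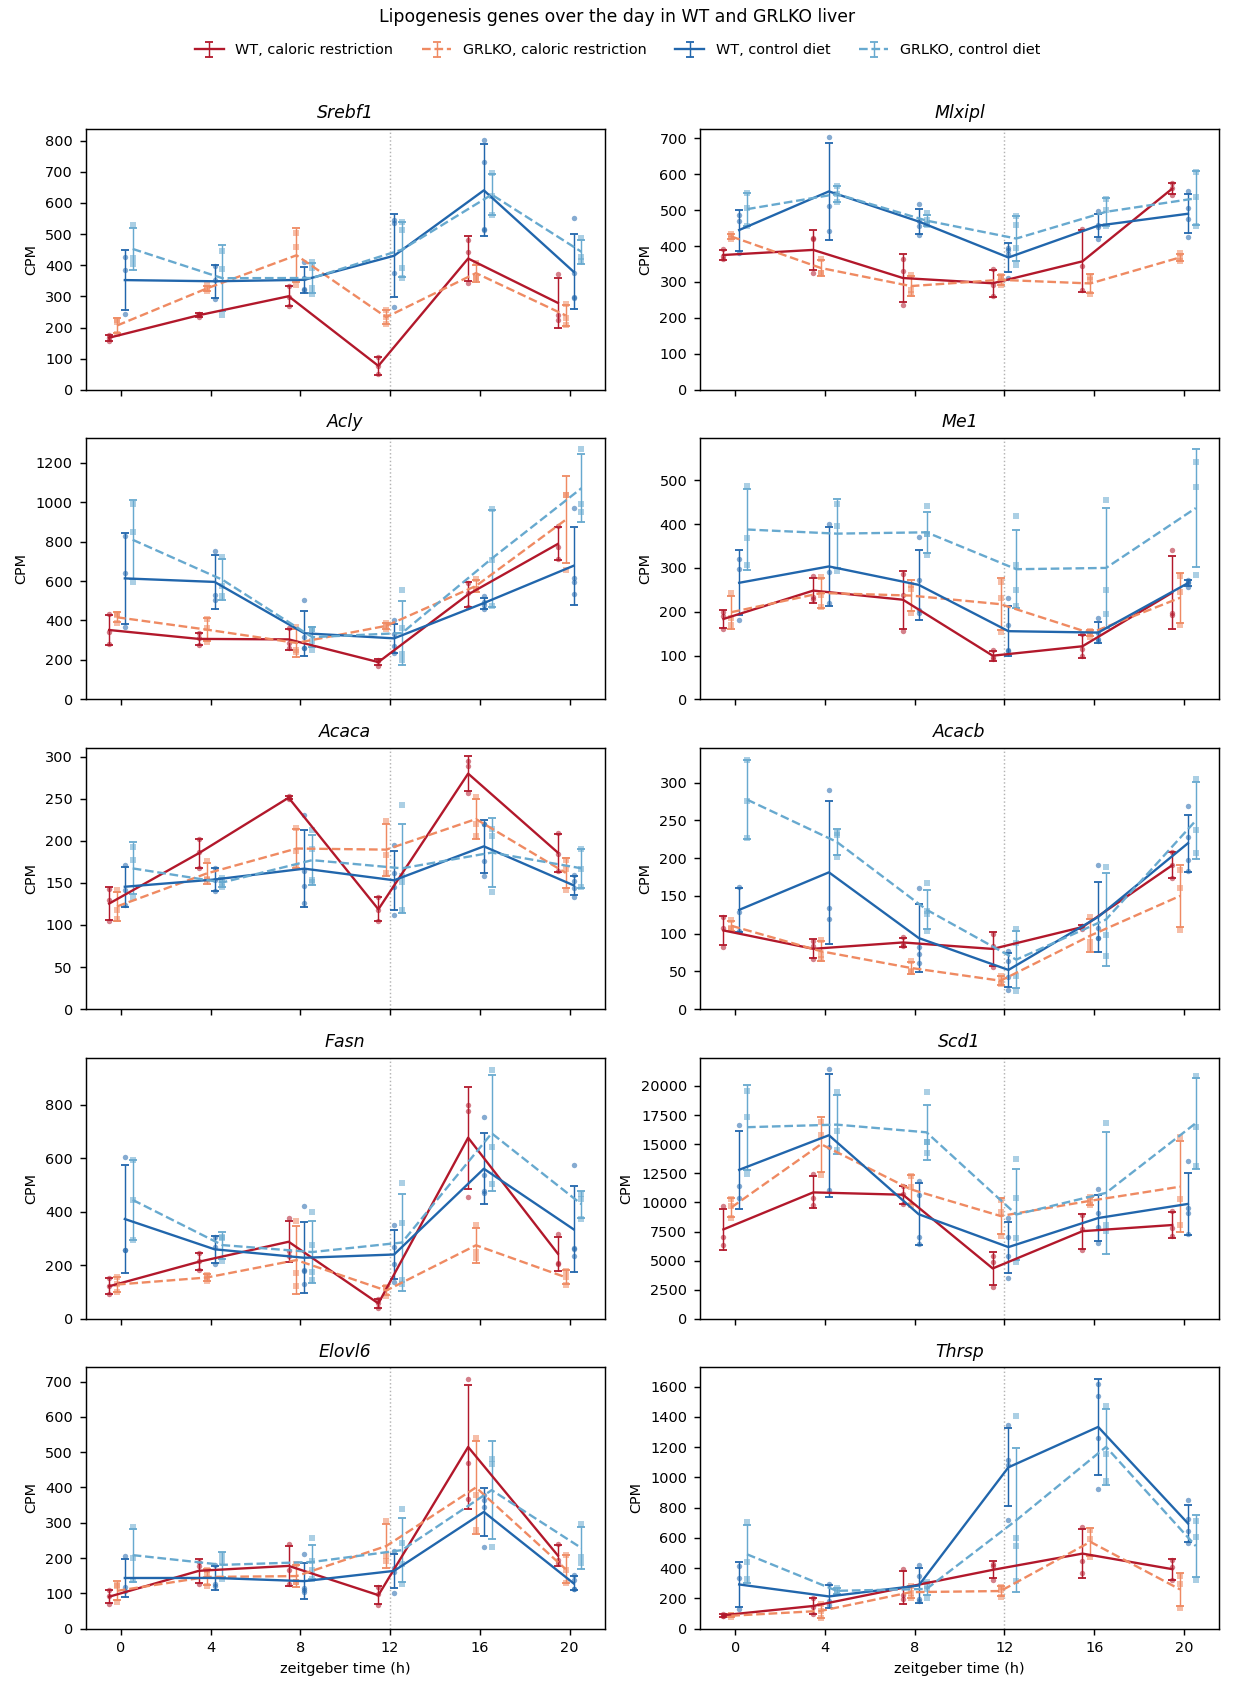
CPM of the 10 lipogenesis genes over the day, each point 1 library, each line the group mean and each bar its SD (n = 3 or 4), with symbols shifted sideways so that groups do not hide each other and a dotted line at ZT12, when food was given. In WT mice on caloric restriction Fasn, Srebf1 and Elovl6 were low at ZT12 and high at ZT16, Fasn at 57.5 and 676 CPM. The axes start at 0 and differ between genes.

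JTK_CYCLE, a rank test for a symmetric 24 h wave, called a part of these profiles rhythmic. On caloric restriction it called 3 of 10 genes in WT beside 26.0% of all genes, namely Acly (phase ZT20, adjusted p = 0.0228), Acacb (phase ZT20, adjusted p = 0.0379) and Thrsp (phase ZT14, adjusted p = 0.00625). It called 6 in GRLKO beside 22.3% of genes: Mlxipl, Acly, Acaca, Acacb, Elovl6 and Thrsp. On control diet it called 5 in WT beside 28.3%, namely Acly, Me1, Acacb, Scd1 and Thrsp, and 4 in GRLKO beside 25.1%, namely Srebf1, Acly, Acacb and Thrsp. Acly, Acacb and Thrsp were called in all 4 sets, with phases of ZT20 or ZT22 for Acly, ZT20 to ZT0 for Acacb and ZT14 to ZT18 for Thrsp. Fasn was called in none, with an adjusted p of 1 in WT and 1 in GRLKO on caloric restriction, 0.24 in WT and 0.0998 in GRLKO on control diet. The edgeR F test of any difference between the 6 times, with no wave shape, called 10 of 10 genes in WT on caloric restriction beside 64.3% of all genes, and 9 in GRLKO beside 60.5%. On control diet it called 9 in WT beside 50% (6244 of 12481) and 5 in GRLKO beside 42.0%. The count of 3 in WT on caloric restriction was 1 without ZT0 replicate 1, ZT16 replicate 1 or 2, or any ZT20 replicate. Whether rhythms differed between genotypes or diets was not tested.

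Deletion of the receptor was compared with WT at each time, and on caloric restriction most calls were at ZT12, before the meal. At ZT12 9 of 10 genes were called, 7 higher and 2 lower in GRLKO, beside 15.3% of all genes. Srebf1 was at 106, 49.1 and 75.6 CPM in WT and at 234, 256 and 211 CPM in GRLKO (log2 fold change 1.60 ± 0.25 SE, adjusted p = 0.00789). The 3 GRLKO libraries lay above the highest WT library. Acly was at 195, 171 and 202 CPM in WT and at 378, 356 and 385 CPM in GRLKO (log2 fold change 0.97 ± 0.10 SE, adjusted p = 0.00118), and NADPH-producing Me1 was at 95.7, 91.2 and 112 CPM against 231, 153 and 268 CPM (log2 fold change 1.118 ± 0.20 SE, adjusted p = 0.0123). Neither gene overlapped between genotypes. The carboxylases parted. Acaca was at 118, 105 and 133 CPM in WT and 223, 162 and 184 CPM in GRLKO (log2 fold change 0.67 ± 0.14 SE, adjusted p = 0.0209), whereas Acacb was at 56.0, 83.2 and 100.1 CPM in WT and 32.8, 35.8 and 44.4 CPM in GRLKO (log2 fold change -1.09 ± 0.22 SE, adjusted p = 0.017). The cytosolic enzyme was thus higher and the mitochondrial one lower in all 3 GRLKO libraries.

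The later enzymes followed Acaca at ZT12. Fasn was at 59.2, 40.6 and 72.8 CPM in WT and 113, 85.1 and 118 CPM in GRLKO (log2 fold change 0.87 ± 0.22 SE, adjusted p = 0.0387). Scd1 was at 5402, 2699 and 4883 CPM in WT and 7128, 10230 and 9134 CPM in GRLKO (log2 fold change 1.02 ± 0.26 SE, adjusted p = 0.0381). At ZT12 WT replicate 2 was the lowest of the WT libraries for every gene of the set except Acacb and Elovl6. Elovl6 was at 66.99, 119 and 98.0 CPM against 304, 193 and 205 CPM (log2 fold change 1.301 ± 0.25 SE, adjusted p = 0.0143). Fasn, Scd1 and Elovl6 were all separated between the genotypes. Thrsp was lower in GRLKO, at 278, 258 and 209 CPM against 414, 323 and 427 CPM in WT (log2 fold change -0.65 ± 0.15 SE, adjusted p = 0.0261), in 3 of 3 libraries. Mlxipl was the uncalled gene, at 336, 261 and 293 CPM in WT and 291, 315 and 312 CPM in GRLKO (log2 fold change 0.04, adjusted p = 0.836), so of the 2 regulators the SREBP-1 gene alone was called. Srebf1, Acly, Me1 and Elovl6 kept the call without each library. The other calls ended without WT replicate 1 or 2 or GRLKO replicate 1 or 3 for Acaca and Fasn (adjusted p up to 0.0659 and 0.121), without WT replicate 2 or GRLKO replicate 1 or 2 for Acacb (up to 0.0645), without WT replicate 3 or any GRLKO replicate for Scd1 (up to 0.107), and without WT replicate 1 or 3 or GRLKO replicate 2 or 3 for Thrsp (up to 0.142).

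Cell-type markers in this comparison are set beside the 15.3% of all genes called. The 6 Kupffer and myeloid markers summed to 47.7 ± 13.1 CPM in WT and 107 ± 28.1 CPM in GRLKO at ZT12 on caloric restriction (SD, n = 3), and 2 of 6 were called higher. Of the 7 hepatocyte markers 5 were called lower in GRLKO, with sums of 168800 ± 3015 CPM in WT and 122800 ± 9273 CPM in GRLKO. The hepatocyte list includes Tat, a known target of the receptor. Cholangiocyte markers summed to 28.8 ± 2.38 against 31.9 ± 0.505 CPM with 1 of 3 tested called lower, endothelial markers to 155 ± 13.9 against 191 ± 10.6 CPM and stellate markers to 233 ± 24.5 against 209.5 ± 16.7 CPM, the last 2 lists with none called. Their part in the result was not tested.

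Away from ZT12, 3 genes differed between genotypes on caloric restriction, each at 1 time point and each lower in GRLKO. At ZT8 Acacb was at 95.6, 85.2 and 84.1 CPM in WT and 63.7, 50.2 and 49.7 CPM in GRLKO (log2 fold change -0.69 ± 0.11 SE, adjusted p = 0.0276), the single gene called beside 2.55% of all genes. At ZT16, after the meal, Fasn was at 797, 776 and 456 CPM in WT and 248.8, 349 and 227 CPM in GRLKO (log2 fold change -1.29 ± 0.25 SE, adjusted p = 0.029), again the single call beside 4.54%. The sign for Fasn was therefore opposite before and after the meal. Of the further lipogenic enzymes Acss2, Elovl2, Elovl5, Fads1 and Fads2 were called higher in GRLKO at ZT16 and Mid1ip1 lower, beside the same 4.54%. At ZT20 Mlxipl was at 543, 562 and 575 CPM in WT and 366, 359.7 and 379.6 CPM in GRLKO (log2 fold change -0.59 ± 0.076 SE, adjusted p = 0.0189), 1 call beside 1.47%. In all 3 cases the 3 GRLKO libraries lay below the 3 WT libraries. At ZT0 edgeR called 0 genes beside 0.502%, with 2 at an unadjusted p under 0.05 beside 13.2%, and at ZT4 0 beside 0.690%, with 3 unadjusted beside 14.6%. Srebf1 came closest at ZT4, at 233, 242 and 244 CPM in WT and 336, 317 and 323 CPM in GRLKO (log2 fold change 0.44 ± 0.072 SE, adjusted p = 0.0555). Over the 6 times 12 of 60 tests were called, 7 higher and 5 lower, and DESeq2 called 19, beside 3.03% of all genes at ZT0 to 17.3% at ZT12. Each of the 3 single calls ended without some library: Acacb at ZT8 without WT replicate 1 or 3 or GRLKO replicate 2 or 3 (adjusted p up to 0.125), Fasn at ZT16 without WT replicate 1 or 2 or GRLKO replicate 1 or 3 (up to 0.109), and Mlxipl at ZT20 without WT replicate 1, 2 or 3 or GRLKO replicate 2 (up to 0.115).

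On control diet edgeR called 0 of 60 tests between genotypes. The background was 0.536% of genes at ZT0, 0.195% at ZT4, 1.43% at ZT8, 2.08% at ZT12, 1.98% at ZT16 and 0.420% at ZT20, and DESeq2 called 6 tests in all, beside 1.51% of genes at ZT4 to 5% at ZT16. The counts at an unadjusted p under 0.05 were 1, 0, 2, 1, 2 and 4 in the same order, beside 15.3%, 9.75%, 11.2%, 12.6%, 16.6% and 11.3% of all genes. The lowest adjusted p were those of Acacb at ZT0, at 129, 162 and 103 CPM in WT and 227, 330.4 and 275 CPM in GRLKO (log2 fold change 1.07 ± 0.20 SE, adjusted p = 0.0834), and of Scd1 at ZT8, at 6439, 6992, 10660 and 11850 CPM in WT and 15150, 14230, 19480 and 15220 CPM in GRLKO (log2 fold change 0.84 ± 0.20 SE, adjusted p = 0.0909). In both genes every GRLKO library was above every WT library, and neither passed the threshold. Me1 had estimates above 0 at all 6 times, from 0.32 at ZT4 to 0.98 at ZT16 (adjusted p = 0.118), and Elovl6 stood at 0.84 (adjusted p = 0.131) at ZT20. Elovl6, Fasn and Scd1 also had estimates above 0 at all 6 times, so the sign was shared by these 4 enzymes and edgeR called none of them. Without WT replicate 4 at ZT8 the number of called tests was 3, and without GRLKO replicate 2 at ZT20 it was 1. For Srebf1 the estimates lay between -0.033 at ZT16 and 0.35 at ZT0.

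Whether the genotype effect itself differed between diets was tested by an interaction, in which a level shared by all libraries of a diet drops out. At ZT12 edgeR called 0 of 10 genes beside 1.01% of all genes, with 2 at an unadjusted p under 0.05, beside 14.2%, and 1 called by DESeq2, beside 4.2%. Srebf1 had the largest estimate, 1.54 ± 0.38 SE (adjusted p = 0.0831), followed by Acacb at -1.42 ± 0.63 (adjusted p = 0.331). The count was 1 without WT replicate 1 on caloric restriction or WT replicate 4 on control diet. At ZT16 edgeR called 0 beside 0.234%, with 1 unadjusted beside 10.5% and 1 by DESeq2 beside 1.48%, and Fasn was at -1.60 ± 0.38 (adjusted p = 0.129). The 9 genes called at ZT12 on caloric restriction were therefore not shown to differ in their genotype effect from those on control diet. These interactions use the same libraries as the genotype comparisons at the same times.

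The step from ZT12 to ZT16 spans the meal and lies within 1 library series for each diet. Food was given at lights off, so the meal, darkness and time of day cannot be told apart in this step. The name meal step, used below, stands for the interval and not for a cause. In WT mice on caloric restriction 6 of 10 genes rose and none fell, beside 40.0% of all genes called. Fasn rose from 59.2, 40.6 and 72.8 to 797, 776 and 456 CPM (log2 fold change 3.56 ± 0.29 SE, adjusted p = 0.000255), a fold of 11.8. Srebf1 rose from 106, 49.1 and 75.6 to 442, 481 and 342 CPM (log2 fold change 2.46 ± 0.28 SE, adjusted p = 0.000718). The synthase and its regulator thus showed large steps with every ZT16 library above every ZT12 library. Elovl6 rose from 66.99, 119 and 98.0 to 468, 708 and 368 CPM (log2 fold change 2.45 ± 0.29 SE, adjusted p = 0.000927), Acly from 195, 171 and 202 to 589, 540 and 467 CPM (log2 fold change 1.497 ± 0.11 SE, adjusted p = 0.000213), and Acaca from 118, 105 and 133 to 294, 289 and 256 CPM (log2 fold change 1.24 ± 0.11 SE, adjusted p = 0.000342). No library overlapped between the times in these 5 genes. Scd1 rose least, from 5402, 2699 and 4883 to 7686, 8952 and 5951 CPM (log2 fold change 0.81 ± 0.26 SE, adjusted p = 0.0435), and lost its call without ZT12 replicate 3 or ZT16 replicate 1 or 2 (adjusted p up to 0.126). Mlxipl, Me1, Acacb and Thrsp were not called, at 0.28 (adjusted p = 0.255), 0.29 (adjusted p = 0.191), 0.45 (adjusted p = 0.0994) and 0.36 (adjusted p = 0.24). This step and the genotype comparison at ZT12 share the 3 WT libraries of ZT12.

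GRLKO mice on caloric restriction also had 6 rising genes across the meal, beside 37.8% of genes called. The estimates for Fasn, Srebf1, Acly and Elovl6 were below those in WT. The direct test of this difference follows, and edgeR did not call Elovl6 in it. Fasn rose from 113, 85.1 and 118 to 248.8, 349 and 227 CPM (log2 fold change 1.39 ± 0.19 SE, adjusted p = 0.00133), and Srebf1 from 234, 256 and 211 to 359, 407 and 359 CPM (log2 fold change 0.69 ± 0.10 SE, adjusted p = 0.00176). Acly rose by 0.63 (adjusted p = 0.000998) and Elovl6 by 0.78 (adjusted p = 0.0469). The Elovl6 libraries overlapped, and its call ended without ZT12 replicate 2 or 3 or ZT16 replicate 2 or 3 (adjusted p up to 0.147). Acacb and Thrsp rose in GRLKO: Acacb from 32.8, 35.8 and 44.4 to 89.4, 122 and 80.6 CPM (log2 fold change 1.38 ± 0.18 SE, adjusted p = 0.0011) and Thrsp from 278, 258 and 209 to 593, 653 and 474 CPM (log2 fold change 1.22 ± 0.15 SE, adjusted p = 0.000886). Both started from a ZT12 level under that of WT. Acaca was at 0.26 (adjusted p = 0.169), Scd1 at 0.21 (adjusted p = 0.266), Me1 at -0.52 (adjusted p = 0.0631) and Mlxipl at -0.039 (adjusted p = 0.778).

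The difference between the genotypes in this step was tested directly. On caloric restriction 4 of 10 genes were called, each with a smaller rise in GRLKO, beside 3.15% of all genes. The interaction was -2.18 ± 0.37 SE for Fasn (adjusted p = 0.0111), -1.78 ± 0.31 for Srebf1 (adjusted p = 0.0125), -0.99 ± 0.19 for Acaca (adjusted p = 0.0169) and -0.87 ± 0.14 for Acly (adjusted p = 0.00733). The 4 genes encode the SREBP-1 regulator and enzymes of acetyl-CoA supply, its carboxylation and palmitate synthesis. All 4 kept the call without each of the 12 libraries. DESeq2 called 8 genes, beside 8.23% of all genes. Elovl6 came next at -1.67 (adjusted p = 0.0643), then Me1 at -0.81 (adjusted p = 0.143) and Scd1 at -0.60 (adjusted p = 0.35). Acacb at 0.92 (adjusted p = 0.118) and Thrsp at 0.85 (adjusted p = 0.156) had estimates above 0, and Mlxipl was at -0.32 (adjusted p = 0.473). On control diet edgeR called 0 of 10 genes in the same test, beside 0% of all genes, with 0 at an unadjusted p under 0.05, beside 6.11%, and 0 by DESeq2, beside 0.169%. The Fasn interaction there was 0.05 ± 0.59 SE. How the genotype difference in the step compares between diets was not tested.

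On control diet 4 of 10 genes rose across the meal step in WT mice, beside 13.4% of genes called. Fasn rose from 269, 350.4, 136 and 205 to 755, 479, 538 and 469 CPM (log2 fold change 1.23 ± 0.27 SE, adjusted p = 0.0205). Elovl6 rose from 219, 172, 101 and 162 to 346, 379.6, 366 and 232 CPM (log2 fold change 1.02 ± 0.23 SE, adjusted p = 0.0219). In both genes the 4 ZT16 libraries were above the 4 ZT12 libraries. Acly rose by 0.67 (adjusted p = 0.0224) and Acacb by 1.24 (adjusted p = 0.0498), also without overlap. Srebf1 was at 0.58 (adjusted p = 0.144) and Mlxipl at 0.32 (adjusted p = 0.0513), neither called, and the other 4 genes lay between -0.024 for Me1 and 0.50 for Scd1. These calls depended on single libraries: the count was 0 without ZT12 replicate 4 or ZT16 replicate 1, 1 without ZT16 replicate 3, and 2 without ZT12 replicate 2 or ZT16 replicate 2. Acacb also lost its call without ZT12 replicate 3 or ZT16 replicate 4 (adjusted p up to 0.124). In GRLKO mice on control diet edgeR called 0 genes beside 9.06%, with 4 at an unadjusted p under 0.05, beside 24%, and 1 called by DESeq2, beside 11.6%. Fasn was at 129, 147, 358 and 506 CPM at ZT12 and 930.4, 505 and 642 CPM at ZT16 (log2 fold change 1.29, adjusted p = 0.144). All 10 estimates were above 0 in that comparison, and the count was 1 without ZT12 replicate 3 or 4.

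The step in WT differed between the diets for 5 of 10 genes, each with a larger rise on caloric restriction, beside 14.8% of all genes. The interaction was 2.30 ± 0.44 SE for Fasn (adjusted p = 0.00474), 1.86 ± 0.40 for Srebf1 (adjusted p = 0.00947) and 1.40 ± 0.40 for Elovl6 (adjusted p = 0.034). Acaca was at 0.87 ± 0.24 (adjusted p = 0.0273) and Acly at 0.81 ± 0.21 (adjusted p = 0.0242). A level difference between library series drops out of this test, while a response that differed between series would not. Fasn went from a mean of 57.5 ± 16.2 to 676 ± 191 CPM in restricted mice, and from 240.2 ± 91.5 to 560.3 ± 133 CPM in controls. Diet and library series cannot be told apart in such levels. This test shares the WT libraries on caloric restriction with the genotype interaction above. Fasn and Srebf1 kept the call without each of the 14 libraries. The count was 2 without ZT16 replicate 1 on caloric restriction, and 3 without ZT12 replicate 1 or 2 or ZT16 replicate 2 on caloric restriction or without ZT16 replicate 1 on control diet. Elovl6 alone also lost its call without ZT12 replicate 3 on caloric restriction or without ZT12 replicate 1 or 2 or ZT16 replicate 4 on control diet (adjusted p up to 0.0819). Thrsp, Mlxipl, Me1, Scd1 and Acacb were at 0.002, -0.069, 0.28, 0.28 and -0.82, none called.

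**Figure D3:**
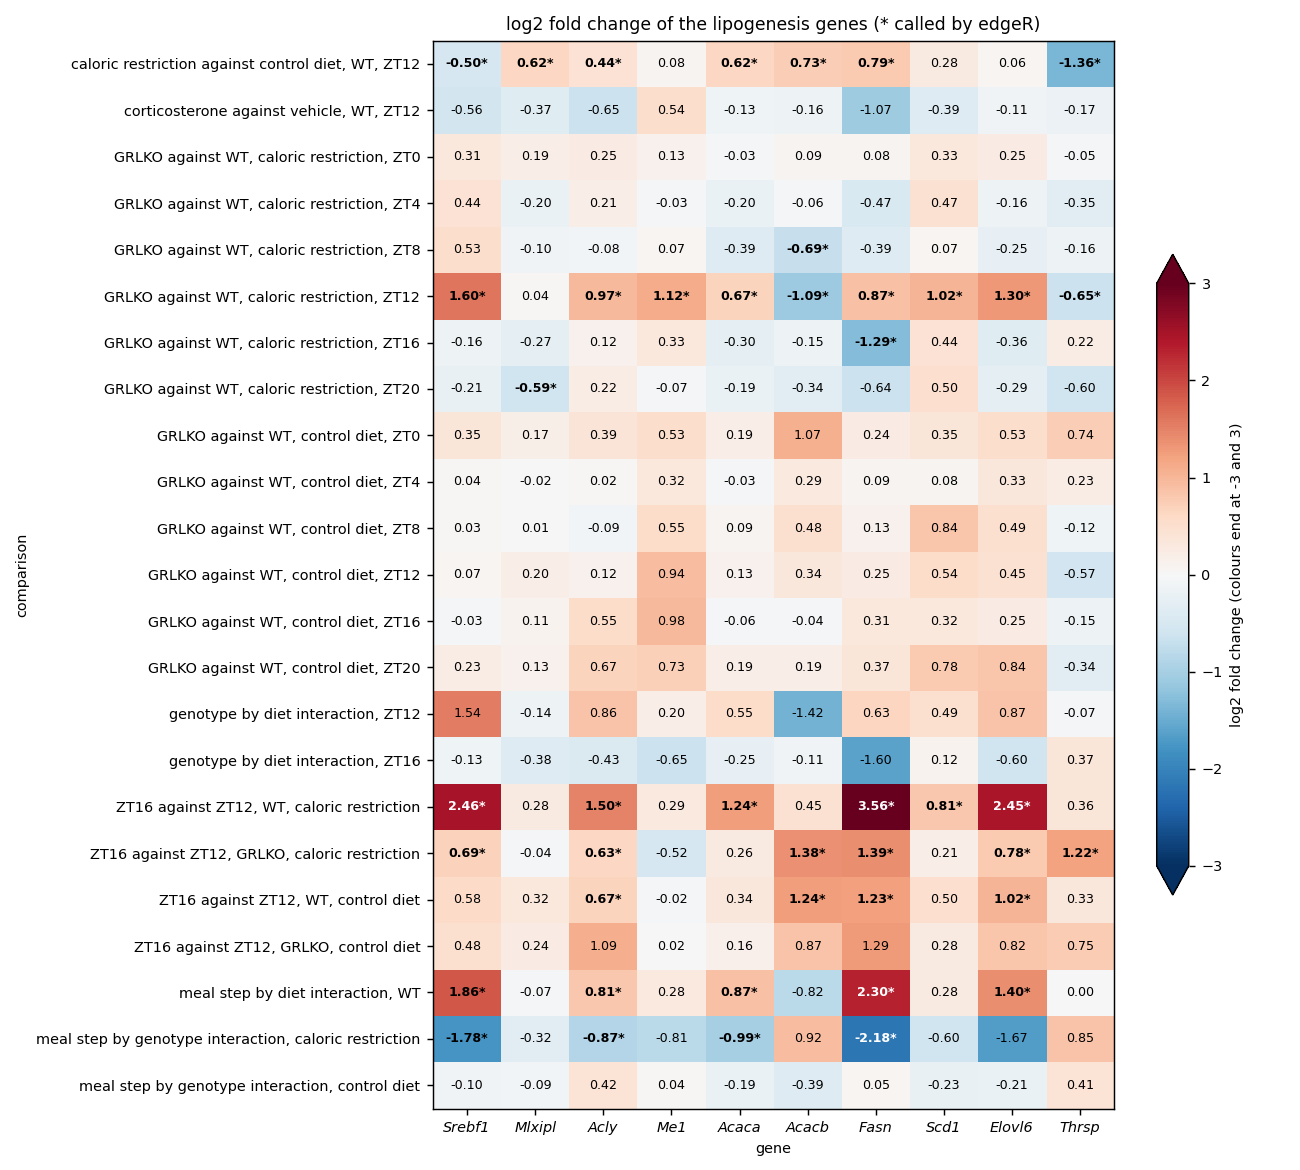
Log2 fold changes of the 10 genes (columns) in the 23 edgeR comparisons (lines), with blue for lower and red for higher and an asterisk for an adjusted p under 0.05. The meal step is ZT16 against ZT12. The largest called change was Fasn across the meal in WT on caloric restriction, at 3.56, and the genotype comparisons on control diet carry no asterisk.

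Cell-type markers across the meal in WT mice on caloric restriction are set beside the 40.0% of all genes called. All 6 Kupffer and myeloid markers rose, with a median log2 fold change of 1.21 beside 0.012 over all genes, and summed to 47.7 ± 13.1 CPM at ZT12 and 109.9 ± 16.4 CPM at ZT16. In GRLKO the sums were 107 ± 28.1 and 116 ± 15.2 CPM. The ZT12 WT libraries on caloric restriction were thus low both for these markers and for Srebf1 and Fasn. In WT on control diet the 6 markers also had lower means at ZT12 than at ZT8. Clec4f was at 23.2 ± 5.26 CPM at ZT12 and at 38.5 ± 0.875 CPM at ZT8 (SD, n = 4). In that set Mlxipl, Acly, Acacb and Scd1 had their lowest mean at ZT12, and the other genes at other times. The lowest Fasn mean was at ZT8, at 228 ± 132 CPM. In WT on caloric restriction the hepatocyte sum was 168800 ± 3015 CPM at ZT12 and 138300 ± 3839 CPM at ZT16, and 5 of 7 hepatocyte markers were called lower at ZT16. The part of either list in the result was not tested.

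The lists of genes around the pathway had medians nearer to 0 than the 10 genes in these comparisons. At ZT12 on caloric restriction, beside 15.3% of all genes called, 8 of 24 further enzymes were higher in GRLKO and none lower (median 0.21 beside -0.004 over all genes and 0.92 over the 10 genes), Acsl3 by 0.86 and Fads2 by 0.83. Of 22 regulators 3 were higher and 3 lower (median 0.12), with Insig1 higher by 0.73. Of 15 tested targets 3 were higher and 5 lower (median -0.052), with Lpin1 at -4.04 and Arrdc4 at 0.80. Across the meal in WT on caloric restriction, beside 40.0% of all genes called, 9 of 24 enzymes rose and 2 fell, 45.8% of the list (median 0.23 beside 1.02 over the 10 genes), with Aacs up by 2.36 and Acsl3 by 0.81, and Fads2 at -0.90. Of the regulators 5 rose and 9 fell (median -0.24), Insig1 up by 1.32, Tsc22d1 by 2.06 and Irs2 at -1.80. Of 14 tested targets 5 rose and 4 fell (median 0.042), with Txnip at -2.28 and Lpin1 at -4.19. Irs2, Txnip and Lpin1 thus fell across the meal while the SREBP target Insig1 rose. The genotype difference in the step, beside 3.15% of all genes called, was called for Mid1ip1 (-2.29) and Acsl3 (-1.22) among the enzymes, for Insig1 (-1.59) and Insig2 (1.41) among the regulators, and for Angptl8 (-1.69) among the targets. Mid1ip1 encodes a relative of Spot 14 that activates acetyl-CoA carboxylase. The list medians were -0.039, -0.14 and -0.048, beside -0.84 over the 10 genes and -0.009 over all genes.

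The genes whose daily profile was most like that of the 10 genes were found by the lower of the Pearson correlations on each diet with their mean standardised profile, over 12 group means per diet, among 8592 genes. The 8 highest were Ggt6 (0.85), Esrp2, Elovl1 and Ttll12 (0.79 each), Col15a1 (0.78), Lacc1 and Fam136a (0.77 each) and Kank2 (0.76). Elovl1 is an elongase of very long fatty acids and was also in the list of further enzymes. The 10 genes themselves correlated with their own mean by between 0.26 (Thrsp, control diet) and 0.86 (Fasn, caloric restriction), with Srebf1 at 0.83 and 0.60 and Mlxipl at 0.37 and 0.65 on caloric restriction and control diet. That mean includes each of the 10 genes, which raises their values, so these are not comparable with those of the 8 genes. With single libraries in place of group means the 8 genes ranked 4, 41, 17, 13, 1, 8, 44 and 5. The points share libraries, times and genotypes, and the values are a description.

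The genes lie on chromosomes 3, 5, 7, 9, 11 and 19 of GRCm38.p6, the build named mm10 in the labels, with Srebf1, Acly, Acaca and Fasn on chromosome 11. Exons of Srebf1 share 109 of 5634 bases with Rai1 on the opposite strand (1.93%). Exons of the other 9 genes overlap no other gene of the count tables, and annotated genes outside these were not checked. Promoter windows from RefSeq were matched for 9 of the 10 genes, with 13 windows in all, and the remaining gene is Scd1. Each window runs from 250 bases before to 50 after an annotated start, and 5 motifs were searched on both strands. CCAAT, the box of NF-Y, occurred in 8 of 13 windows from 7 genes and in 37.4% of all 32851 windows. CACGTG, an E-box, occurred in 1 Mlxipl window and in 7.15% of all, and TCACNCCAC, a sterol regulatory core, in the other Mlxipl window and in 1.24% of all. GTAAACA, a forkhead motif, occurred in the Elovl6 window and in 3.65% of all, and ACANNNTGT, a core of the glucocorticoid receptor element, in 0 of the 13 and in 6.85% of all. A match is a description of letters and not a bound site, and the shares include windows of any gene. The windows of Acaca, Acacb and Fasn, all 3 of Srebf1 and the second of Mlxipl and of Me1 lie inside the span of the gene, so they precede a start in the table and not the outer end of the gene. The 250 bases before each start are given for Fasn, Srebf1, Acly and Elovl6, whose meal step differed between diets or genotypes, 5′ to 3′ on the strand of the gene, with motif matches in capitals. Fasn (chr11:120824548-120824797, minus strand) holds 3 CCAAT matches. Srebf1 has 3 starts (chr11:60222582-60222831, chr11:60220628-60220877 and chr11:60210472-60210721, minus strand), with CCAAT matches whose first letter is at -166 in the first and at -30 in the third. Acly (chr11:100528001-100528250, minus strand) has its match at 38, past the start and outside the bases shown. Elovl6 (chr3:129532136-129532385, plus strand) holds GTAAACA at -123. Acaca, whose meal step also differed, is not shown because its window lies inside the gene far from the outer end, and it holds none of the 5 motifs.
Fasn: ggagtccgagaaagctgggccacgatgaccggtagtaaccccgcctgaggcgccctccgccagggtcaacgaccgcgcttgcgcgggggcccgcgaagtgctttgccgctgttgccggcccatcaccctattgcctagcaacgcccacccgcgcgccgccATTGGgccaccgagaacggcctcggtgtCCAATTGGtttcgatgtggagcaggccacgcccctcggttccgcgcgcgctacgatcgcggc
Srebf1 start 1: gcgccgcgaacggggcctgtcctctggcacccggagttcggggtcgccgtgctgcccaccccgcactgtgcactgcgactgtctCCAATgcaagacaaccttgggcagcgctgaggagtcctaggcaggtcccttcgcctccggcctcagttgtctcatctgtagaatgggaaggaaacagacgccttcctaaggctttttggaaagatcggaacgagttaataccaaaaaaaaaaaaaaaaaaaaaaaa
Srebf1 start 2: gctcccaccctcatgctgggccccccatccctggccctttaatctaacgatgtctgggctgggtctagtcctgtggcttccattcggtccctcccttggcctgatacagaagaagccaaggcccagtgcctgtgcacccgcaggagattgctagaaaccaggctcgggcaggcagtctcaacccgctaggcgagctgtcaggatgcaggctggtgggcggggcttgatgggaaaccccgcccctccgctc
Srebf1 start 3: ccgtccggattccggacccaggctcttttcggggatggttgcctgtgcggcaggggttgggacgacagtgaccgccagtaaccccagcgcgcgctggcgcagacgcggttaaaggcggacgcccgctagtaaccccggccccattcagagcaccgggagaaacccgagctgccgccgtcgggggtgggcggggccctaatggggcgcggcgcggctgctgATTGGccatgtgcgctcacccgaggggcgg
Acly: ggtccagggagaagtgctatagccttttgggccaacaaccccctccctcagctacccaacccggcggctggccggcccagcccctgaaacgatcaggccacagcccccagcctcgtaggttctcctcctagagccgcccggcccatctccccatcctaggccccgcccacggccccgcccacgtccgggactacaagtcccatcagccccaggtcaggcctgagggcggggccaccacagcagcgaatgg
Elovl6: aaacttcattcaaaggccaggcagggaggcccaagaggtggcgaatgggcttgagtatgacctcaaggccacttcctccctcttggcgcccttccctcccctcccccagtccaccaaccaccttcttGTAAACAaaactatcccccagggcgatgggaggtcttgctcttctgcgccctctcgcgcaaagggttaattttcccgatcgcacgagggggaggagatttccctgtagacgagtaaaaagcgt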

How the data were processed

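Poly(A) RNA of mouse liver was sequenced by the authors, who deposited Salmon estimated counts per gene in 4 tables of 27654 gene IDs. All 90 libraries were used. Counts were rounded and tested with edgeR 4.0.16 (R 4.3.3, quasi-likelihood, TMM, filterByExpr minimum count 10, adjusted p under 0.05), each comparison on its own libraries. Rhythms were tested with JTK_CYCLE in Python 3.11.15 (numpy 2.4.6, scipy 1.17.1, pandas 2.3.3) on variance-stabilised counts from DESeq2 1.42.0, period 24 h, amplitude over 0.1. Both were tested on simulated data. Figures used matplotlib 3.10.9. Alternatives were RLE scaling, no filter, DESeq2, a replicate block, robust dispersions, a joint fit per diet, other rhythm settings and leaving out each library. The 10 genes and the lists (further enzymes, regulators, targets, and markers of hepatocytes, adipocytes, cholangiocytes, Kupffer and myeloid, endothelial and stellate cells) were chosen with earlier results of these data known. All 10 genes are named, with the 4 largest changes of each list in the diet comparison, genes behind small counts and 8 genes of like profile. A list gene that met this rule is not reported here. Variance-stabilised tables of the authors were not used here.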

Additional observations from a re-analysis of the deposited data

Results flagged for a closer look

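Of 66 sets of 4 libraries tested, 1 for each of the 10 genes and Nr3c1 in each group of 4, 3 held a library far from the other 3. At about 1 in 20 groups, about as many would be marked by chance. Acacb was at 191.2 CPM in WT replicate 3 at ZT16 on control diet, beside 94.38 to 107.9 CPM in the others. Fasn was at 574.5 CPM in WT replicate 3 at ZT20 on control diet, beside 233.8 to 266 CPM. Elovl6 was at 210.8 CPM in WT replicate 4 at ZT8 on control diet, beside 103 to 113.8 CPM. All 3 libraries were kept. The step from ZT12 to ZT16 differed between groups in 9 interaction tests with an adjusted p under 0.05. Between diets in WT the log2 difference was 1.86 for Srebf1, 0.81 for Acly, 0.87 for Acaca, 2.30 for Fasn and 1.40 for Elovl6. Between genotypes on caloric restriction it was -1.78 for Srebf1, -0.87 for Acly, -0.99 for Acaca and -2.18 for Fasn. Both interactions use the WT libraries of ZT12 and ZT16 on caloric restriction, so a gene called in both is not an independent result. The cause was not tested.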

How the results depend on the processing

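With the time-series WT libraries at ZT12 in place of the diet experiment, 7 genes changed sign: Mlxipl -0.326, Acly -0.722, Me1 -0.652, Acaca -0.381, Fasn -2.072, Scd1 -0.522 and Elovl6 -0.8, where diet and library series cannot be told apart. DESeq2 called 2 genes for corticosterone, 19 tests for genotype on caloric restriction and 6 on control diet, 1 in each genotype by diet interaction (ZT12 and ZT16), 1 for ZT16 against ZT12 in GRLKO on control diet and 8 in the meal step by genotype interaction on caloric restriction. Its shares of all genes stand in the report. A single fit per diet called 2 genotype tests on control diet. A replicate block called 3 genes in the meal step by diet interaction, and the replicate numbers paired no groups in 18 checks. The shares of all genes called by the single fit and by the block are not given here, so neither count is set against a background. The F test over time points called 10 genes in WT on caloric restriction and 9 in WT on control diet, beside 64.3% and 50% of all genes. RLE scaling, no filter and robust dispersions, the last added after the data were seen, moved no count by over 1.5 times. Leaving out 1 library gave 3 to 6 genes for diet, 0 to 1 for corticosterone, 8 to 12 and 0 to 3 genotype tests on caloric restriction and control diet, 5 to 6 for the meal step in either genotype on caloric restriction, 0 to 4 in WT and 0 to 1 in GRLKO on control diet, 2 to 5 for its interaction with diet and 4 to 5 for that with genotype on caloric restriction. The cause was not tested.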
